A study of Mus musculus with 12 samples.

Results

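The interleukin 6 family was followed here through 10 genes, each with at least 1 probe set that the platform annotation ties to a single symbol, out of 19937 genes with such a probe set. Of these, 4 encode secreted cytokines (Il6, Il11, Lif and Clcf1), 4 encode receptor chains (Il6ra, Il6st, Lifr and Osmr), and Stat3 and Socs3 encode the transcription factor and the feedback inhibitor of the pathway. Socs3 had 2 probe sets, of which the one with the higher mean over all arrays was used. The Affymetrix Mouse Gene 1.0 ST arrays carried RNA of osteoblasts or endothelial cells that were sorted out of long bones, all from female mice of the strain C57BL/6. Tumor-bearing mice had received 500000 cells of EO771, a mammary cancer line of that strain, by the intracardiac route some 2 weeks earlier, and tumor-free mice served as controls. The osteoblast gate took CD51+ cells negative for GFP, TR119, CD45, SCA1 and CD31. The endothelial gate took SCA1+ CD31+ cells negative for GFP, TR119 and CD45. Cell type and tumor together gave 4 groups with 3 arrays apiece, labelled as biological replicates, and every array used amplified RNA from 5000 cells. The labels state neither the age of the mice, nor an injection of the controls, nor whether a replicate was 1 mouse or a pool, nor whether both cell types came from the same mice.

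Cytokines of this family signal through gp130, the shared receptor chain encoded by Il6st, which has no enzyme activity of its own and relies on bound JAK kinases. Interleukin 6 and interleukin 11 first bind their own chains (the first of them encoded by Il6ra) before gp130 is drawn in, whereas leukaemia inhibitory factor uses a pair of gp130 and the Lifr chain, and oncostatin M can pair gp130 with the Osmr chain. The kinases phosphorylate STAT3, which moves to the nucleus and induces, among other genes, Socs3, whose product blocks gp130 and so closes the loop. In bone the family is known for acting on osteoblasts, and through them on osteoclast formation.

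Marker genes matched the labelled cell types. All 7 measured osteoblast markers, among them Alpl, Phex and Dmp1, were higher in osteoblasts and all 10 endothelial markers were lower, whether or not the mice bore tumors (limma, Benjamini-Hochberg adjusted p under the threshold of 0.05). Of these, Phex, Dmp1, Kdr, Emcn, Tek and Flt4 passed the filter given below only through the cell type where they were high. Their calls were thus partly set by the filter. Array medians lay between 5.95 and 6.04 on the log2 scale. Osteoblast arrays differed among themselves in markers of other cells. The median of 9 chondrocyte markers was 9.75, 10.14 and 7.81 in replicates 1, 2 and 3 with tumor and 8.34, 10.17 and 8.15 in replicates 1, 2 and 3 without. Replicate 3 of both osteoblast groups had the highest median of 8 pan-haematopoietic markers (6.81 and 6.62, against at most 6.03 in the other osteoblast arrays). The single markers were divided within the tumor-bearing group. Its replicate 3 was the highest array for Ptprc, Laptm5, Cd53 and Vav1, the lowest for Coro1a, Lcp1 and Rac2, and between the others for Itgb2. For 9 neutrophil markers the median reached 10.54 in replicate 3 of the tumor-free osteoblasts, while the other osteoblast arrays stayed at 7.66 or below. The median of 6 mammary epithelial markers lay between 5.52 and 5.83 in all 12 arrays. Of these, the keratin gene Krt8 stood at 10.13 in replicate 3 of the tumor-bearing osteoblasts and at 6.78 to 7.54 in the other 11 arrays.

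The clearest pattern was in the receptor chains, which separated the cell types: Lifr was higher in osteoblasts, while Il6st and Osmr were higher in endothelial cells. In RNA of pooled sorted cells, fewer cells of a type and less RNA per cell cannot be told apart, in this and in every other comparison. A gene was tested where it exceeded the 40th percentile of its array (5.51 to 5.61) in at least 3 of the 12 arrays, which 8 members did and Il6 and Il11 did not. Lif did so only through 4 osteoblast arrays, so its comparison between the cell types is given as values without a test. Without tumor, 3 of the 8 tested members differed between osteoblasts and endothelial cells, where 12.4% of all 14217 genes tested did (limma over all 12 arrays, Benjamini-Hochberg over all genes). Of these members 1 was higher in osteoblasts (5.38% of all genes) and 2 were lower (7% of all genes). With tumor, 2 of 8 differed against 10.6% of all genes, with 1 member higher (4.89% of all genes) and 1 lower (5.68%). Arrays of the cell types did not overlap for 3 of 8 members without tumor (29.4% of all genes) and for 4 of 8 with tumor (28.1%). The 4 include Lif, which entered through osteoblast arrays only and whose lowest tumor-bearing osteoblast array (5.42) lay below the 40th percentile. Lif is also kept in the medians that follow. The median osteoblast over endothelial log2 difference of the 8 members was -0.06 in tumor-free and -0.07 in tumor-bearing mice, beside -0.01 and -0.03 over all genes tested. Between tumor-bearing and tumor-free mice, limma called 0 of 8 members in osteoblasts (0.0563% of all genes) and 0 of 8 in endothelial cells (0.0141%), where the groups overlapped for all 8 (10.5% of all genes did not overlap). At an unadjusted p under 0.05, the counts were 1 of 8 in osteoblasts, against 9.78% of all genes, and 0 of 8 in endothelial cells, against 4.59%. The plot of all 10 genes by array shows these groups side by side.

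**Figure D1:**
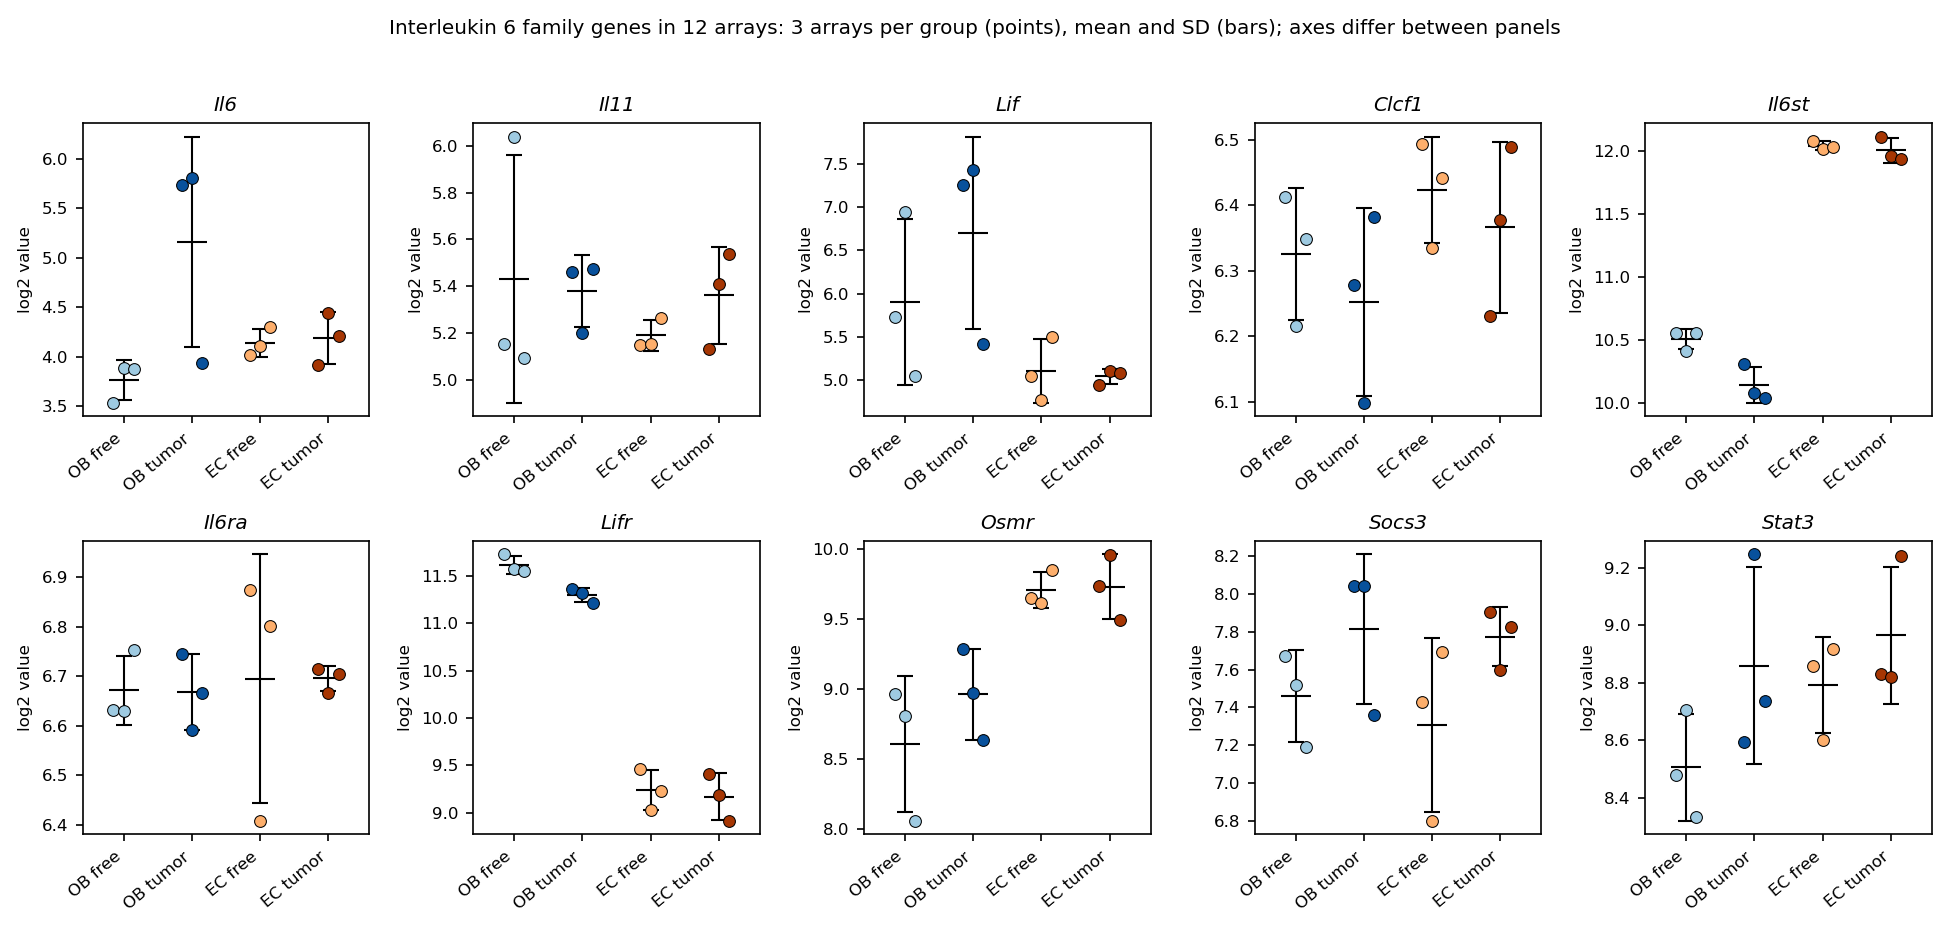
Log2 value of each of the 10 genes (1 panel per gene, each with its own vertical axis) in the 3 arrays of each group (OB for osteoblasts, EC for endothelial cells), with bars for mean and SD. Lifr lies at 11.21 or above in every osteoblast array and at 9.46 or below in every endothelial array, Il6st lies the other way, and Il6 and Lif are spread widely among the osteoblast arrays of tumor-bearing mice.

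Among the ligands, Il6 and Lif stood out by their spread within osteoblasts. Their promoters are shown because both genes had their highest values in the same 2 arrays, replicates 1 and 2 of the tumor-bearing osteoblasts. Each line gives the 250 bases before the RefSeq transcript start on GRCm38.p6, 5′ to 3′ on the gene's strand, with motif matches in capitals (Il6 at chr5:30012864-30013113 and Lif at chr11:4257318-4257567, both on the plus strand).
Il6: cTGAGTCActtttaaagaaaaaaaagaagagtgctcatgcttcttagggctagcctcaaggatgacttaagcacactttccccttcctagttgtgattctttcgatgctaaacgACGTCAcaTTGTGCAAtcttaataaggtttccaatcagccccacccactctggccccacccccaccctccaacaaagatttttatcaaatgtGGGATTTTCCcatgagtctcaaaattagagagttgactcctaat
Lif: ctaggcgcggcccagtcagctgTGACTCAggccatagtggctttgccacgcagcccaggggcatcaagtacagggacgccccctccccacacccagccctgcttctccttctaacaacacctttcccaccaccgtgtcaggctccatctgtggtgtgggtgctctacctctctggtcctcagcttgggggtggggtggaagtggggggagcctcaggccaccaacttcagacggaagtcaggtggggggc
The capitals mark, in Il6, AP-1 (TGANTCA, starting 249 bases before the start), CRE (ACGTCA, 136), C/EBP (TTGCNNAA, 128, on the other strand) and NF-kappaB (matched letters GGGATTTTCC, 44). In Lif they mark AP-1 alone, at 228. The motifs were searched on both strands and the marked matches do not overlap each other. Of 32851 RefSeq promoter windows of this length, 6.75% held the AP-1 letters, 6.47% the CRE letters, 9.56% the C/EBP letters, 0.356% the NF-kappaB motif, searched with any base at the fifth of these letters, and 7.02% the STAT letters TTCNNNGAA. Of the 10 genes, all but Clcf1 had promoter entries, with 11 windows in all. Outside Il6, Lif and Socs3, 1 of the 2 Il11 windows held AP-1, and no window of Il6st, Il6ra, Lifr, Osmr or Stat3 held any of the 5 motifs. A match is a run of letters and was not tested as a binding site.

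Il6, which encodes the founding cytokine of the family, had log2 values of 5.74, 5.81 and 3.93 in replicates 1, 2 and 3 of the osteoblasts of tumor-bearing mice. In tumor-free osteoblasts they were 3.53, 3.88 and 3.88. In endothelial cells they were 3.92, 4.44 and 4.21 with tumor and 4.02, 4.11 and 4.30 without. Replicates 1 and 2 of the tumor-bearing osteoblasts were thus the only arrays in which Il6 exceeded the 40th percentile, and replicate 3 lay just above the highest tumor-free osteoblast array. The osteoblast means were 5.16 ± 1.06 and 3.77 ± 0.20 (SD, n = 3), a difference of 1.39. With 2 arrays above the percentile Il6 was not among the genes tested. A limma fit without the filter gave an adjusted p of 0.337 for this difference and of 0.748 for its difference from that in endothelial cells (1.35). Without replicate 3 of both osteoblast groups, a choice made after the data were seen, the difference was 2.07.

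Lif, the ligand of the gp130 and Lifr pair, had log2 values of 7.26, 7.43 and 5.42 in osteoblasts of tumor-bearing mice. In those of tumor-free mice they were 5.72, 6.94 and 5.05. Endothelial values were 4.94, 5.11 and 5.08 with tumor and 5.04, 4.77 and 5.50 without. The osteoblast groups overlapped, and the tumor difference of 0.80 (SE 0.55, 95% confidence interval -0.42 to 2.01) did not pass (limma adjusted p = 0.673). Lif entered through osteoblast arrays, so no test against endothelial cells is given. The osteoblast mean was 6.70 ± 1.11 with tumor and 5.91 ± 0.96 without (SD, n = 3), and the endothelial means were 5.04 ± 0.09 and 5.10 ± 0.37. With tumor the lowest osteoblast array (5.42) lay above the highest endothelial array (5.11), and without tumor the cell types overlapped. Replicate 3 of the tumor-bearing osteoblasts, the array lowest in Il6 and Lif within its group, was also the array with Krt8 at 10.13 and the highest pan-haematopoietic median. The median of all 6 mammary epithelial markers was 5.56 in this array, against 5.56 and 5.64 in replicates 1 and 2. The pan-haematopoietic markers Coro1a, Lcp1 and Rac2 were lowest in it within the group. The part of these markers in the Il6 and Lif values was not tested.

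Chondrocyte markers moved with Lif across the osteoblast arrays, and only in part with Il6. The 3 osteoblast arrays with the highest chondrocyte medians (9.75, 10.14 and 10.17) were the 3 with the highest Lif values (7.26, 7.43 and 6.94). Of these, replicate 2 of the tumor-free mice had the highest chondrocyte median and an Il6 value of 3.88, close to that of the other tumor-free arrays. All 9 markers exceeded the 40th percentile in every osteoblast array, and their medians lay between 5.75 and 6.44 in the endothelial arrays. The part of chondrocyte markers in either result was not tested.

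**Figure D2:**
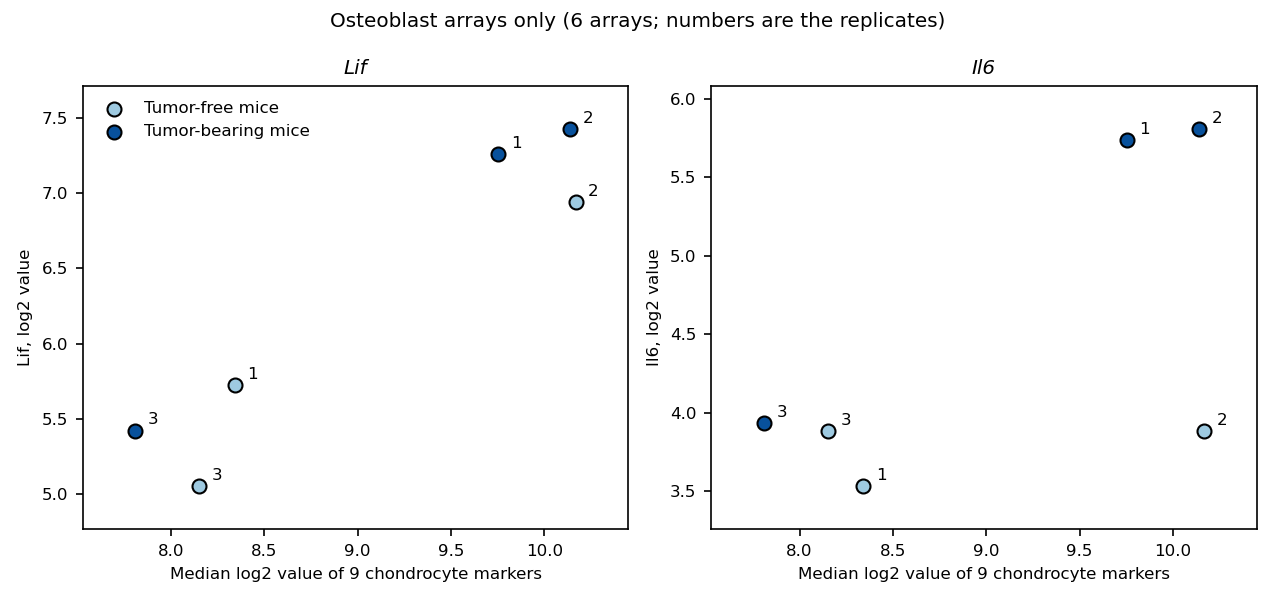
Log2 values of Lif (left) and Il6 (right) against the median log2 value of 9 chondrocyte markers in the 6 osteoblast arrays, each numbered by its replicate. Lif is at 6.94 or above in the 3 arrays with chondrocyte medians of 9.75 or above, whereas Il6 is at 5.74 or above in 2 of those 3, both from tumor-bearing mice.

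Il11 and Clcf1 were less spread over the arrays. Il11, which encodes a cytokine of bone and stromal cells, lay between 5.09 and 5.54 in 11 of the 12 arrays and at 6.04 in replicate 2 of the tumor-free osteoblasts. That array was the 1 array in which it exceeded the 40th percentile, so it was not tested. Clcf1, which encodes a ligand of the ciliary neurotrophic factor receptor, lay between 6.10 and 6.49 in all 12 arrays. Its differences ranged from -0.11 to -0.06 over both tumor comparisons and both comparisons of the cell types, and none passed (limma adjusted p from 0.635 to 1.00).

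Of the receptor chains, Lifr was the 1 member called higher in osteoblasts. It lay at 11.72, 11.57 and 11.55 in tumor-free osteoblasts and at 11.36, 11.32 and 11.21 in those of tumor-bearing mice. In endothelial cells it lay at 9.46, 9.03 and 9.23 without tumor and at 9.41, 9.19 and 8.91 with tumor. No osteoblast array overlapped an endothelial array. Lifr was 5.17-fold higher in osteoblasts of tumor-free mice (log2 difference 2.37, SE 0.15, limma adjusted p = 2.27e-06). In tumor-bearing mice it was 4.36-fold higher (2.13, adjusted p = 5.79e-06).

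Il6st, the gp130 chain shared by all these ligands, ran the other way. It lay at 12.08, 12.01 and 12.03 in endothelial cells of tumor-free mice and at 12.11, 11.96 and 11.93 in those of tumor-bearing mice. Osteoblast values were 10.55, 10.41 and 10.55 without tumor and 10.30, 10.08 and 10.04 with tumor. The osteoblast and endothelial arrays again did not overlap. Il6st was lower in osteoblasts by 2.89-fold in tumor-free mice (log2 difference -1.53, SE 0.10, limma adjusted p = 4.2e-06). In tumor-bearing mice it was lower by 3.63-fold (-1.86, adjusted p = 9.96e-07). Lifr and Il6st passed in all 22 alternative fits of each of these comparisons.

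Osmr, the chain that makes gp130 a receptor for oncostatin M, was lower in osteoblasts of tumor-free mice as well. It lay at 9.65, 9.62 and 9.85 in tumor-free endothelial cells and at 8.97, 8.81 and 8.06 in tumor-free osteoblasts. With tumor it lay at 9.73, 9.96 and 9.50 in endothelial cells and at 9.29, 8.97 and 8.64 in osteoblasts. The cell types did not overlap in either condition. The lowest of these arrays, replicate 3 of the tumor-free osteoblasts, was the one with the neutrophil marker median of 10.54, and the tumor-free call held without it. The log2 difference was -1.09 in tumor-free mice (SE 0.24, limma adjusted p = 0.0132) and -0.77 in tumor-bearing mice (SE 0.24, adjusted p = 0.0752). The call in tumor-free mice was lost without replicate 3 of the tumor-free endothelial cells (-1.02, adjusted p = 0.0540). In tumor-bearing mice Osmr passed in 1 of 22 alternatives, the fit that left out tumor-free osteoblast replicate 3 (adjusted p = 0.0233). The difference between the conditions was 0.33 and did not pass (limma adjusted p = 0.909), so Osmr was not shown to differ more in one than in the other.

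Il6ra, the chain that binds interleukin 6 itself, passed the test in no comparison. Its group means lay between 6.67 and 6.70, and its 12 arrays between 6.41 and 6.87. The osteoblast over endothelial difference was -0.02 in tumor-free mice (95% confidence interval -0.30 to 0.25) and -0.03 in tumor-bearing mice (-0.30 to 0.25). Its tumor differences were smaller than 0.01 in size in both cell types. Within the plot of cell type differences, Il6ra, Clcf1 and Socs3 lie near 0, and the 3 chains that pair on the cell surface lie away from it.

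**Figure D3:**
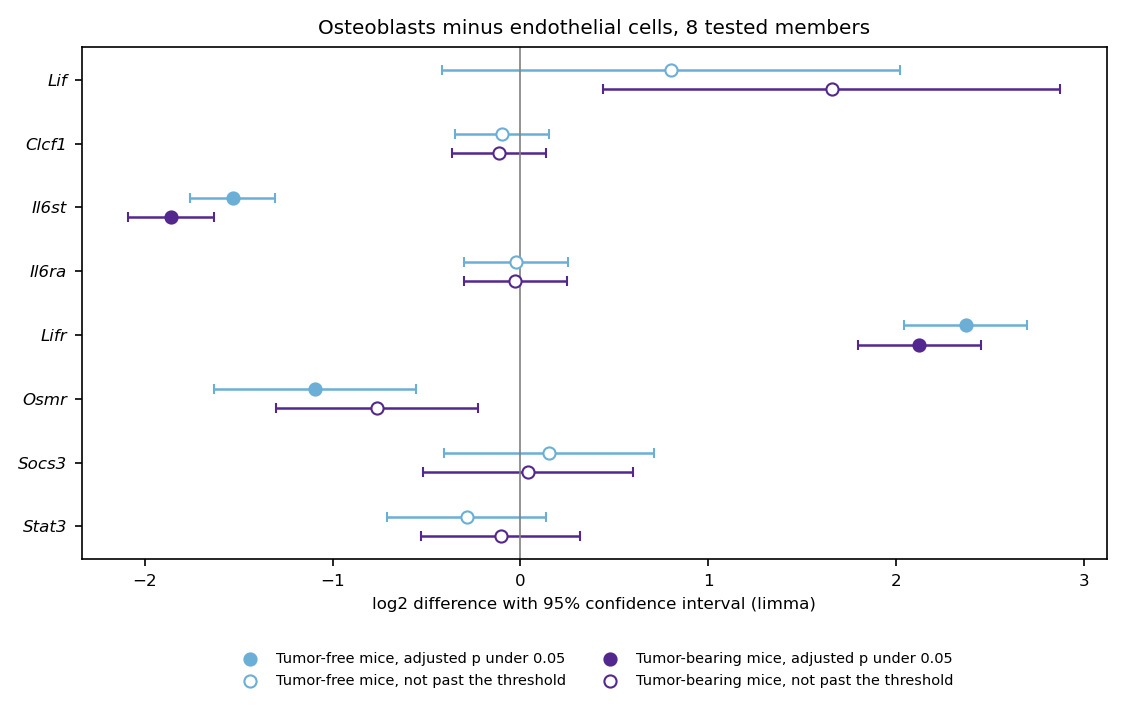
Log2 difference of osteoblasts minus endothelial cells for the 8 tested members, in tumor-free and in tumor-bearing mice, with 95% confidence intervals from limma; filled points have an adjusted p under 0.05. Lifr lies at 2.37 and 2.13, Il6st at -1.53 and -1.86, and Osmr at -1.09 and -0.77, the last of which is open. Lif is shown for its values. It passed the filter through osteoblast arrays only, so its intervals and markers are not read as a test.

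With tumor, both Lifr and Il6st had lower values in osteoblasts, without passing the test. For Il6st the 3 tumor-bearing arrays lay below the 3 tumor-free arrays, with a difference of -0.37 (SE 0.10, unadjusted p = 0.00503, limma adjusted p = 0.302). For Lifr the arrays did not overlap either, with a difference of -0.32 (SE 0.15, adjusted p = 0.534). These were the 2 of 8 tested members whose osteoblast groups did not overlap, both lower with tumor, against 14.5% of all genes tested in either direction and 8.36% in that direction. In endothelial cells the differences were -0.04 for Il6st and -0.07 for Lifr, with overlapping groups. The difference between the tumor effects in osteoblasts and endothelial cells was -0.33 for Il6st (unadjusted p = 0.0477, limma adjusted p = 0.769) and -0.25 for Lifr (adjusted p = 0.875). Of the 8 tested members, limma called 0 for this difference of effects (0.0281% of all genes) and 1 had an unadjusted p under 0.05 (6.47%). Across the 8 markers of marrow reticular stroma, the median tumor difference was -0.48 in the same osteoblast comparison and 1.25 in endothelial cells. Their median level per osteoblast array lay between 7.96 and 8.80 with tumor and between 8.75 and 9.22 without, with all 8 above the 40th percentile in each array. The 8 tested neutrophil markers all had lower means with tumor in osteoblasts, with a median difference of -1.05, and 0 of them passed. The part of either marker list in the receptor values was not tested.

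**Figure D4:**
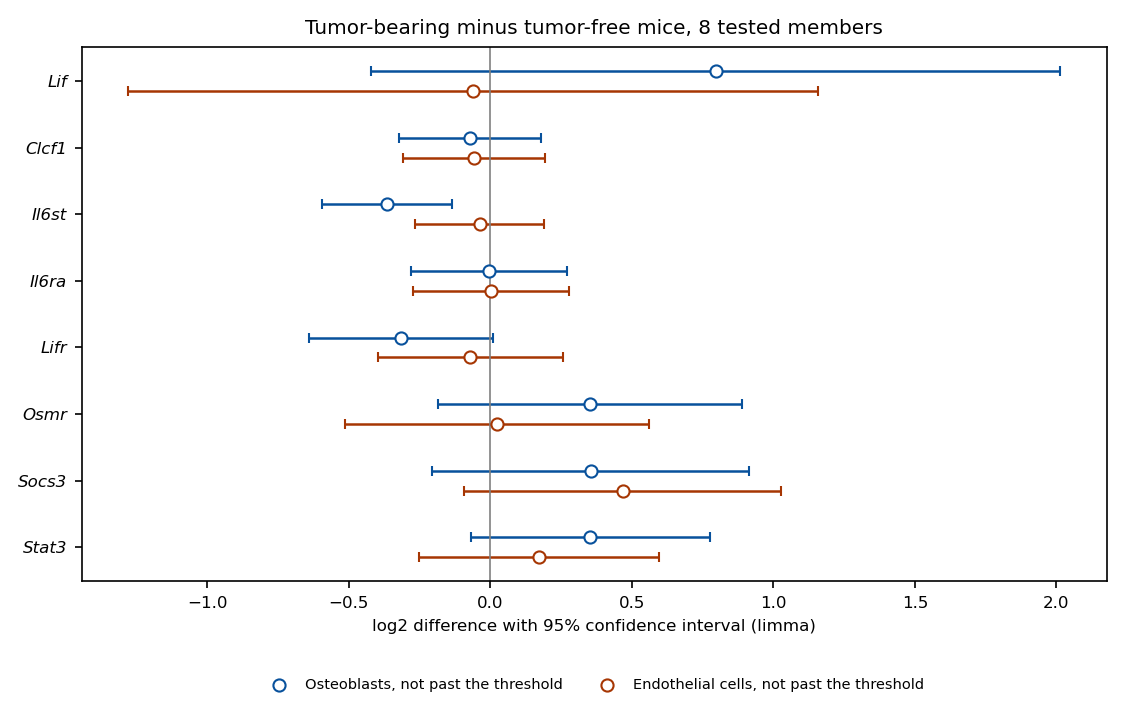
Log2 difference of tumor-bearing minus tumor-free mice for the 8 tested members in osteoblasts and in endothelial cells, with 95% confidence intervals from limma. All points are open (adjusted p of 0.05 or above), and the Il6st interval in osteoblasts, from -0.59 to -0.14, is the 1 interval that does not cross 0.

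Stat3 and Socs3 had higher means with tumor in both cell types, and no difference passed. Stat3 lay at 8.60, 9.25 and 8.74 in osteoblasts with tumor and at 8.48, 8.70 and 8.33 in osteoblasts without. In endothelial cells it lay at 8.83, 8.82 and 9.24 with tumor and at 8.86, 8.60 and 8.92 without. The tumor differences were 0.35 in osteoblasts (SE 0.19, limma adjusted p = 0.599) and 0.17 in endothelial cells (adjusted p = 1.00), and the groups overlapped in both. Between the cell types the differences of Stat3 were -0.29 in tumor-free and -0.11 in tumor-bearing mice, neither of which passed (limma adjusted p of 0.430 and 0.817).

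Socs3, the STAT3 target that shuts the pathway off, was the 1 of the 9 members searched whose promoter window held the STAT letters. These letters occurred in 7.02% of all RefSeq windows of this length. The 250 bases before the Socs3 start (chr11:117969367-117969616 on GRCm38.p6, minus strand, RefSeq) are shown with that match in capitals, since the palindrome begins 154 bases before the start.
Socs3: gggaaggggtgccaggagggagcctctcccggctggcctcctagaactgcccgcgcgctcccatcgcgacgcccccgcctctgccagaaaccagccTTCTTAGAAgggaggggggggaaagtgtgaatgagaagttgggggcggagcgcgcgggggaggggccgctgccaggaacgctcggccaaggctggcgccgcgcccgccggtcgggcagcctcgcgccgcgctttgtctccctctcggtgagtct
Its values were 8.04, 8.04 and 7.36 in osteoblasts with tumor and 7.67, 7.52 and 7.19 in osteoblasts without. In endothelial cells they were 7.90, 7.60 and 7.82 with tumor and 7.43, 6.80 and 7.69 without. The groups overlapped in both cell types. The tumor differences were 0.35 in osteoblasts (SE 0.25, limma adjusted p = 0.681) and 0.47 in endothelial cells (SE 0.25, adjusted p = 1.00). The other Socs3 probe set gave 0.44 in osteoblasts and 0.00 in endothelial cells, so the 2 probe sets disagreed in endothelial cells. It also gave the opposite sign for the cell types in tumor-free mice, -0.27 against 0.15, and neither value passed.

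Further genes of the pathway were taken from 4 lists of 45 genes, of which 41 had a single-symbol probe set and 37 were tested. The others of these lists are not analysed here. Of the 37, limma called 9 between osteoblasts and endothelial cells without tumor (4 higher, 5 lower in osteoblasts), where 12.4% of all genes were called. With tumor it called 8 (5 higher, 3 lower), where 10.6% of all genes were. Of the 5, Saa3 passed the filter only through the tumor-bearing osteoblasts. For the tumor effect limma called 1 in osteoblasts (0.0563% of all genes) and 0 in endothelial cells (0.0141%). At an unadjusted p under 0.05 the counts were 9 of 37 in osteoblasts (9.78% of all genes) and 1 of 37 in endothelial cells (4.59%). The 9 include Saa3. The members and the lists were chosen with earlier results of these data known. Their counts beside those of all genes are therefore descriptions and not a test of the pathway. The medians of the 37 tumor differences were 0.10 in osteoblasts and 0.08 in endothelial cells, beside -0.02 and 0.01 over all genes tested.

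Of the kinases that bind gp130, Jak1 was lower in osteoblasts with and without tumor and Jak2 was lower in those of tumor-free mice, while Tyk2 did not pass the filter. Jak1 averaged 10.08 ± 0.22 in tumor-free osteoblasts and 11.66 ± 0.03 in tumor-free endothelial cells (SD, n = 3), a log2 difference of -1.58 (limma adjusted p = 2.11e-05). In tumor-bearing mice it differed by -1.20 (adjusted p = 0.000178). Jak2 differed by -1.25 in tumor-free mice (adjusted p = 0.0028) and by -0.74 in tumor-bearing mice, where it did not pass (adjusted p = 0.0506) but did in 6 of 22 alternatives (adjusted p down to 0.0141). These were the 2 of 11 tested kinases, transducers and inhibitors called in tumor-free mice (12.4% of all genes), and Jak1 was the 1 of 11 called in tumor-bearing mice (10.6% of all genes). With tumor, 0 of the 11 passed in osteoblasts and 3 had an unadjusted p under 0.05, all with higher values, against 9.78% of all genes. They were the docking protein gene Gab1 (0.59, limma adjusted p = 0.231), Jak2 (0.69, 0.338) and Jak1 (0.37, 0.396). The tumor-bearing arrays lay above the tumor-free arrays in these 3 and below them in 1 other of the 11. Of all genes, 14.5% did not overlap in either direction. In endothelial cells 0 of the 11 passed and 0 had an unadjusted p under 0.05.

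Of the other ligands, 4 of 8 listed genes were tested (Ctf2, Il27, Ebi3 and Il31), and of the other receptor chains, 2 of 4 (Il27ra and Cntfr). Limma called 0 of these 6 in each of the 5 comparisons. Cntfr, the chain that binds ciliary neurotrophic factor, was the 1 with an unadjusted p under 0.05, higher by 0.39 in osteoblasts than in endothelial cells of tumor-bearing mice (adjusted p = 0.164). It passed with tumor-bearing osteoblast replicate 3 left out (0.56, adjusted p = 0.0383) and also with replicate 3 of both osteoblast groups left out. Osm, the ligand of the Osmr chain, did not pass the filter and lay between 5.14 and 5.90 in the 12 arrays.

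Of 20 genes that STAT3 is known to induce in various cells, 1 rose in osteoblasts with tumor. Myc, a growth-promoting transcription factor, lay at 10.34, 10.12 and 10.51 in tumor-bearing and at 8.97, 9.22 and 8.49 in tumor-free osteoblasts, a difference of 1.43 (limma adjusted p = 0.0415). Its difference from the endothelial effect was 1.10 and did not pass (adjusted p = 0.380). Myc kept that call in 9 of 22 alternatives (adjusted p from 0.0201 to 0.458) and lost it in 10 of the 12 fits that left out 1 array, all but those without replicates 2 and 3 of the tumor-free osteoblasts. In all, 13 of the 20 had positive differences (46.7% of all genes did), 6 of them with an unadjusted p under 0.05 (9.78% of all genes in either direction), and the median was 0.15 (-0.02 over all genes). The acute-phase gene Saa3 had the largest of these values, with 8.90, 9.81 and 7.92 in tumor-bearing and 5.02, 5.10 and 6.54 in tumor-free osteoblasts (difference 3.33). It passed the filter only through the tumor-bearing osteoblasts, so this difference is given without a test. The counts of the 20 in osteoblasts include Saa3. The transcription factor genes Nfil3 and Cebpd had differences of 1.33 and 0.74 (adjusted p of 0.302 and 0.286), with no overlap between the groups. In all, the groups did not overlap for 6 of the 20, each higher with tumor, against 14.5% of all genes in either direction. Nfil3 passed with tumor-free osteoblast replicate 2 left out (limma adjusted p = 0.0366). Within the tumor-bearing osteoblasts, replicate 3 was the lowest array for Saa3 and Cebpd, as it was for Il6, Lif and Socs3. Other genes ran otherwise, since Myc (10.51) and Clcf1 (6.38) were highest there. Stat3 (8.74) and Bcl3 (6.88) lay between their values in replicates 1 and 2.

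In endothelial cells 0 of these 20 genes passed with tumor. Positive differences were seen in 15 of the 20 (51.4% of all genes), 1 of them with an unadjusted limma p under 0.05 (4.59% of all genes). The median of the 20 was 0.13 (0.01 over all genes). Groups did not overlap for 4 of the 20, each higher with tumor, against 10.5% of all genes in either direction. For the difference of tumor effects, 11 of the 20 were positive (47.0% of all genes) and the median was 0.04 (-0.02 over all genes). The haptoglobin gene Hp had the smallest p for the tumor effect in endothelial cells. It lay at 9.38, 8.13 and 8.47 in tumor-bearing and at 6.98, 6.49 and 7.47 in tumor-free mice (difference 1.68, unadjusted p = 0.000881, limma adjusted p = 0.396). The median of 8 marrow reticular stroma markers was 8.51, 8.63 and 7.74 in those arrays with tumor and 7.23, 7.25 and 7.38 without. Hp was also higher in tumor-free osteoblasts than in tumor-free endothelial cells, by 2.60 (adjusted p = 0.000864), and the part of the reticular markers in its endothelial values was not tested. Between the cell types, 7 of the 20 differed without tumor, where 12.4% of all genes did. The protease inhibitor gene Timp1 was the highest in osteoblasts (3.77), followed by Hp, the repressor gene Bcl6 (1.36) and Vegfa (0.80). Lrg1 (-2.64), a secreted glycoprotein gene of vessels, the adhesion molecule gene Icam1 (-1.45) and the NF-kappaB cofactor gene Bcl3 (-0.71) were lower. Bcl3 lost its call without replicate 1 of the tumor-free endothelial cells (adjusted p = 0.0524) and in the fit of only the groups compared (0.0645). With tumor, 7 of the 20 differed as well, where 10.6% of all genes did. This count includes Saa3, which passed the filter only through the tumor-bearing osteoblasts. Timp1 (4.74), Saa3 (3.27), Myc (1.63), Nfil3 (1.52) and Vegfa (0.64) were higher in osteoblasts, and Lrg1 (-3.21) and Icam1 (-0.94) were lower. Of these, Nfil3 kept its call in 16 and Vegfa in 15 of 22 alternatives.

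**Figure D5:**
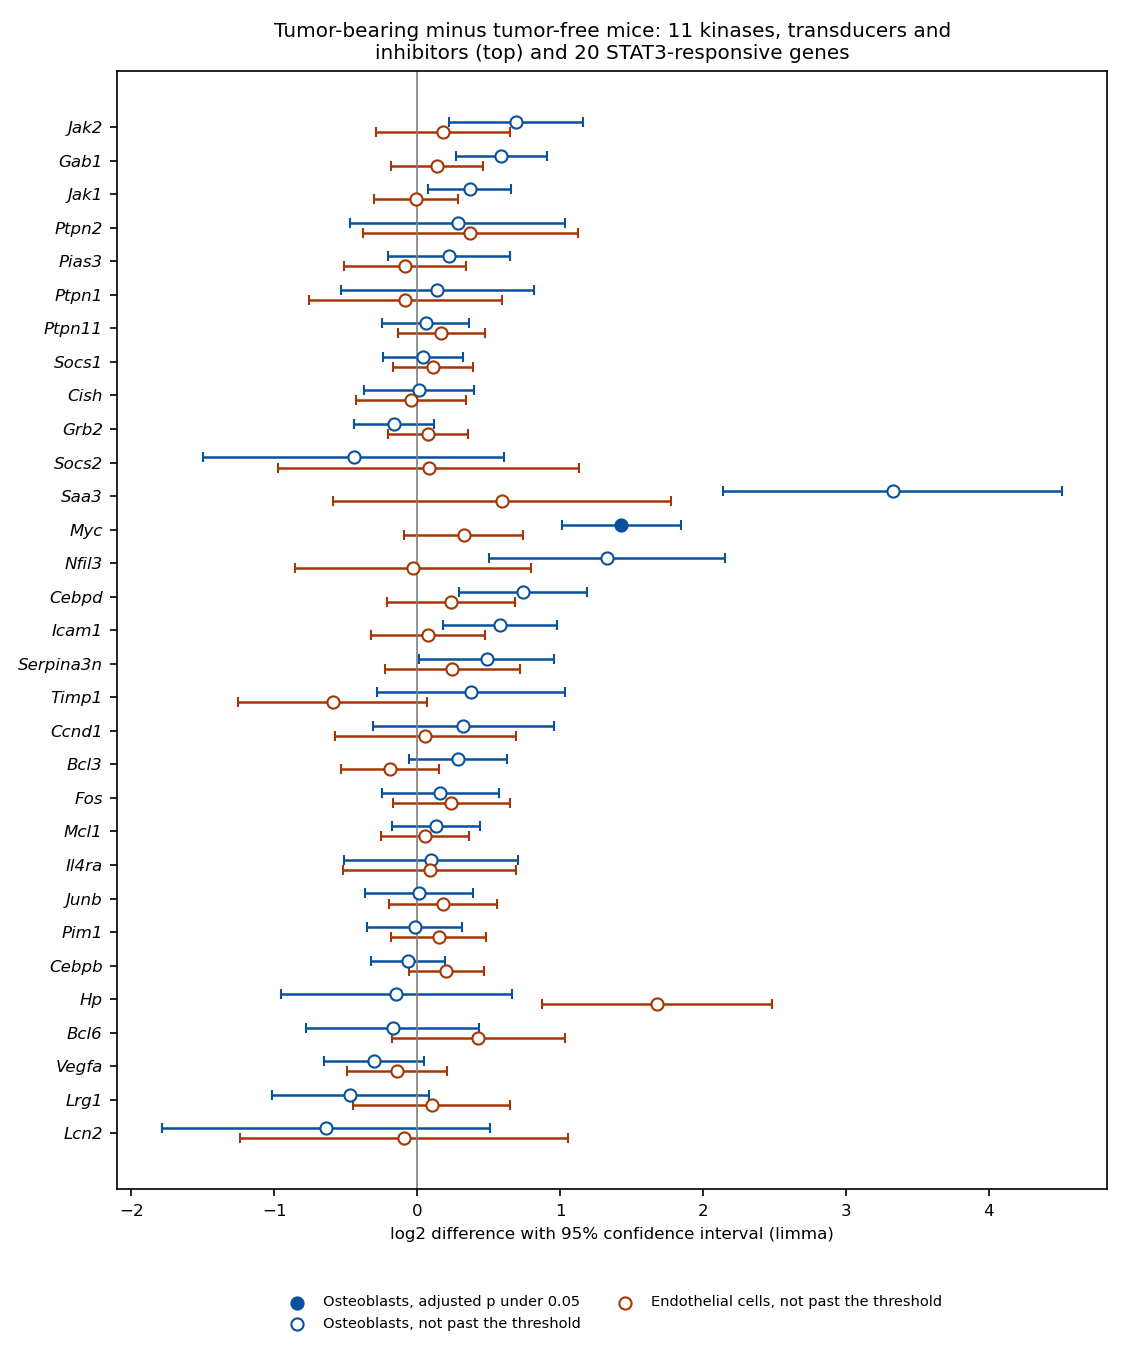
Log2 difference of tumor-bearing minus tumor-free mice in osteoblasts and in endothelial cells, with 95% confidence intervals from limma, for 11 tested kinases, transducers and inhibitors (top, from Jak2 to Socs2) and 20 STAT3-responsive genes (from Saa3 down). Myc in osteoblasts, at 1.43, is the 1 filled point (adjusted p under 0.05), and Saa3 in osteoblasts, at 3.33, lies farthest from 0. Saa3 passed the filter only through the tumor-bearing osteoblasts.

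Over the 12 arrays, the genes most like Lifr were markers of osteoblasts and of the osteocytes they become. The 3 tested genes with the highest Pearson correlation to Lifr were Alpl (0.994), Phex (0.992) and Dmp1 (0.991), which encode the bone alkaline phosphatase, a phosphate-regulating peptidase and a matrix protein of osteocytes. Those of Il6st were Pde2a (0.992), Abcc9 (0.992) and Abca3 (0.992). Those of Lif were Car12 (0.971), Trpv4 (0.962) and Bag3 (0.959), and those of Osmr were Zfp664 (0.967), Heg1 (0.958) and Nckap1 (0.956). The 12 arrays fall into 2 cell types, so each value includes the difference between them. With the group means removed, the correlation was 0.676 for Alpl with Lifr and 0.414 for Pde2a with Il6st, and it was 0.944 for Car12 with Lif. These are descriptions of 12 arrays that share their processing, and the genes were picked for the highest values among 14217.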

How the data were processed

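Gene expression was measured on 12 arrays, 3 in each of 4 groups taken from the sample titles. The submitters' processing notes name the package affy, with version and summary method not given in the sources used here. Values deposited by the authors are log2 per probe set, and their scaling across arrays was left as it is. The amplification may alter the proportions among transcripts, folds of genes near the floor are understated on this scale, and 3 arrays a group limit the precision. The p-values rest on the spread between replicates, which limma pools per gene over the 4 groups and moderates over all genes.

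Of 34760 probe sets, 21640 had 1 platform symbol, 1321 several and 11799 none. Symbols were brought up to date by Entrez number in a RefSeq table (GRCm38.p6), with 21553 matches. Per gene the brightest probe set was kept (19937 genes), of which 14217 passed the 40th percentile filter. All of these entered 1 limma model (3.58.1, R 4.3.3) with a coefficient per group, eBayes with its default prior, two-sided p-values and Benjamini-Hochberg adjustment. The script was tested on simulated data. Promoter windows came from a RefSeq table of the same assembly.

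The members and lists were chosen with earlier results of these data known. Named were all members, every further gene called and, per list and comparison, up to 4 with the smallest p. Likeness was given for the 4 members with the highest correlations. Each alternative fit changed 1 choice: the scaling (quantile or median), the filter (none or the 60th percentile), the probe sets of a gene (averaged), eBayes (trend and robust), array weights, the groups fitted, a replicate block, or 1 array left out. Leaving out replicate 3 of both osteoblast groups together was added after the data were seen.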

Additional observations from a re-analysis of the deposited data

How the results depend on the processing

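Over 22 alternative fits (21 for the difference of tumor effects), the members called with tumor stayed at 0 in each cell type and for the difference. Between the cell types, leaving out 1 array gave 2 to 3 members in both conditions. The other fits gave the reported counts, except 4 and 3 (without and with tumor) without replicate 3 of both osteoblast groups and 3 with tumor under array weights, where the added member was Lif, which entered through osteoblast arrays only. The count over all genes moved more. For the tumor effect in osteoblasts (8 genes) it was 5 with quantile normalization, 1 with array weights, 1 with the replicate block, 0 in the fit of only the groups compared, 45 without replicate 3 of both osteoblast groups, and 1 to 25 with 1 array left out. In endothelial cells (2 genes) it was 2 to 6 with 1 array left out. For the difference (4 genes) it was 1 with the replicate block, 8 without both replicates 3, and 0 to 7 with 1 array left out. Of the further pathway genes, the 1 called in osteoblasts became 0 with array weights, the block or the groups compared, 2 without both replicates 3, and 0 to 2 with 1 array left out. The count without both replicates 3 includes Saa3, as do some with 1 array left out. Saa3 entered only through the tumor-bearing osteoblasts. The causes were not tested.

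The signs that turned belonged to values that did not pass. For Il6ra, median centring gave 0.0209, array weights 0.00629 and the fit without both replicates 3 gave 0.0373 for the tumor effect in osteoblasts. Array weights gave -0.0541 in endothelial cells and 0.0604 for the difference, which was 0.0364 without both replicates 3. The tumor-free difference between the cell types for Il6ra was 0.0290 with quantile normalization and 0.00179 with median centring. Lif in endothelial cells was 0.000123 with quantile normalization. For Socs3 the difference of effects was 0.164 with the mean of its probe sets and 0.0389 with array weights, and its tumor-free difference between the cell types was -0.0586 with the mean.

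With 1 array left out, the tumor effect in osteoblasts ran from -0.138 to 0.00382 for Clcf1 and from -0.0422 to 0.0367 for Il6ra. In endothelial cells it ran from -0.229 to 0.137 for Lif, -0.119 to 0.0102 for Clcf1, -0.143 to 0.0911 for Il6ra, -0.190 to 0.0581 for Lifr and -0.0906 to 0.141 for Osmr. The difference of effects ran from -0.0836 to 0.0613 for Clcf1, -0.0947 to 0.139 for Il6ra, -0.306 to 0.141 for Socs3 and -0.0129 to 0.318 for Stat3. Between the cell types it ran from -0.167 to 0.0670 for Il6ra and -0.101 to 0.346 for Socs3 in tumor-free mice. In tumor-bearing mice it ran from -0.0663 to 0.0104 for Il6ra, -0.0753 to 0.267 for Socs3 and -0.299 to 0.0325 for Stat3.

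Same-numbered arrays were not paired by the labels. The correlation of their deviations from the group means ran from -0.0797 to 0.0740 over 18 pairs, 0 of them over 0.1. Signal near background limits Il6 and Il11, which were not tested.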
